A study of Homo sapiens with 30 samples.

Results

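The genes described here encode subunits of the mitochondrial respiratory chain and ATP synthase, measured in BEAS-2B cells, an established line of human bronchial epithelial cells, after exposure to hookah smoke. Members were gene names of the NDUFA, NDUFB, NDUFC, NDUFS and NDUFV series, SDHA to SDHD, UQCR genes, COX4 to COX8 genes and ATP5 genes that reached 1 FPKM (fragments mapped, scaled to transcript length and library size) in at least 3 libraries. Of 71 names that matched, 58 passed, 11 were below the level, and 2 pseudogene names were left out. The 58 members, out of 8530 genes that passed the same level and 22537 names in the files, fell by name into complex I (29), complex II (4), complex III (7), complex IV (7) and complex V (11).

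Complex I takes electrons from NADH and complex II takes them from succinate. Both pass them through ubiquinone to complex III and cytochrome c to complex IV, which reduces oxygen. Complexes I, III and IV pump protons across the inner mitochondrial membrane, and complex V, the ATP synthase, uses their return flow to make ATP. Most subunits are nuclear-encoded and imported. Those encoded by mitochondrial DNA had no values under the names searched (such as MT-ND1 and ND1), so they were not analysed here. Subunits outside the 58 genes were not analysed either, except where named. Some names hide a different role: NDUFA4 is a subunit of complex IV, COX7A2L helps to join complexes III and IV, and ATP5SL (now DMAC2) is an assembly factor of complex I. UQCRHL and ATP5L2 are close copies of UQCRH and ATP5L with which they can share reads, so their values are uncertain.

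Cells received 1 of 4 exposures for 30 min or served as internal controls, and were lysed for RNA 2 h or 24 h after it. The exposures were tobacco shisha on an electronic heater, tobacco shisha on charcoal, herbal shisha without tobacco on charcoal, and charcoal without shisha (charcoal alone). Each of the 10 groups had 3 wells of 1 cell line, so p-values reflect how far these wells differ, which may be technical variation. Doses were the highest that released no LDH (lactate dehydrogenase, which leaks from dying cells) by 24 h, so they were matched by toxicity and not by smoke mass.

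FPKM sums were 199985 to 220259 per library, and 7597 to 7943 genes reached 1 FPKM. Read depth is unknown because no counts were given. Correlations between wells of a group were 0.9835 to 0.9923. Of 8 airway epithelial markers in the files, KRT8, KRT18, KRT19 and ITGA6 passed the level, while KRT5, TP63, CDH1 and EPCAM, which define basal and epithelial cells, had no group mean above 0.7802 FPKM. Of 8 fibroblast markers, COL1A1, COL1A2, PDGFRB and THY1 passed and DCN was listed at 0 throughout. Of 8 immune markers CD14 and CD68 passed while PTPRC stayed at or below a group mean of 0.0107 FPKM, and of 6 endothelial markers only EGFL7 passed. None of 5 red blood cell or 5 ciliated cell markers passed.

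The members were abundant transcripts. The median of their mean levels over the 30 libraries was 86.1 FPKM, against 7.09 FPKM for all genes tested, and together they made up 2.52 to 3.02% of the FPKM sum of a library. By complex, the median level was 68.1 FPKM for complex I, 78.7 for complex II, 72.5 for complex III, 137.2 for complex IV and 86.4 for complex V. ATP5B, the catalytic beta subunit of the ATP synthase head, was highest at 568.6 FPKM, and NDUFA5, an accessory subunit of complex I, was lowest at 3.88 FPKM. No member was 0 in any library. Among the 11 names below the level, COX4I2 (the lung form), COX6A2 (the muscle form), COX7B2, COX8C and also NDUFA3, an accessory subunit of complex I, were listed at 0 in all 30 libraries. Since NDUFA3 is a subunit that most cells use, a value listed at 0 in these files may be a failed estimate and does not show that a gene was not expressed. NDUFB2-AS1 came nearest to passing, with 1.01 FPKM in its highest library, and NDUFA4L2, the hypoxia-induced relative of NDUFA4, averaged 0.32 FPKM. NDUFV2-AS1, NDUFA6-AS1, COX6B2 and COX7A1 averaged 0.45 FPKM or less.

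**Figure D1:**
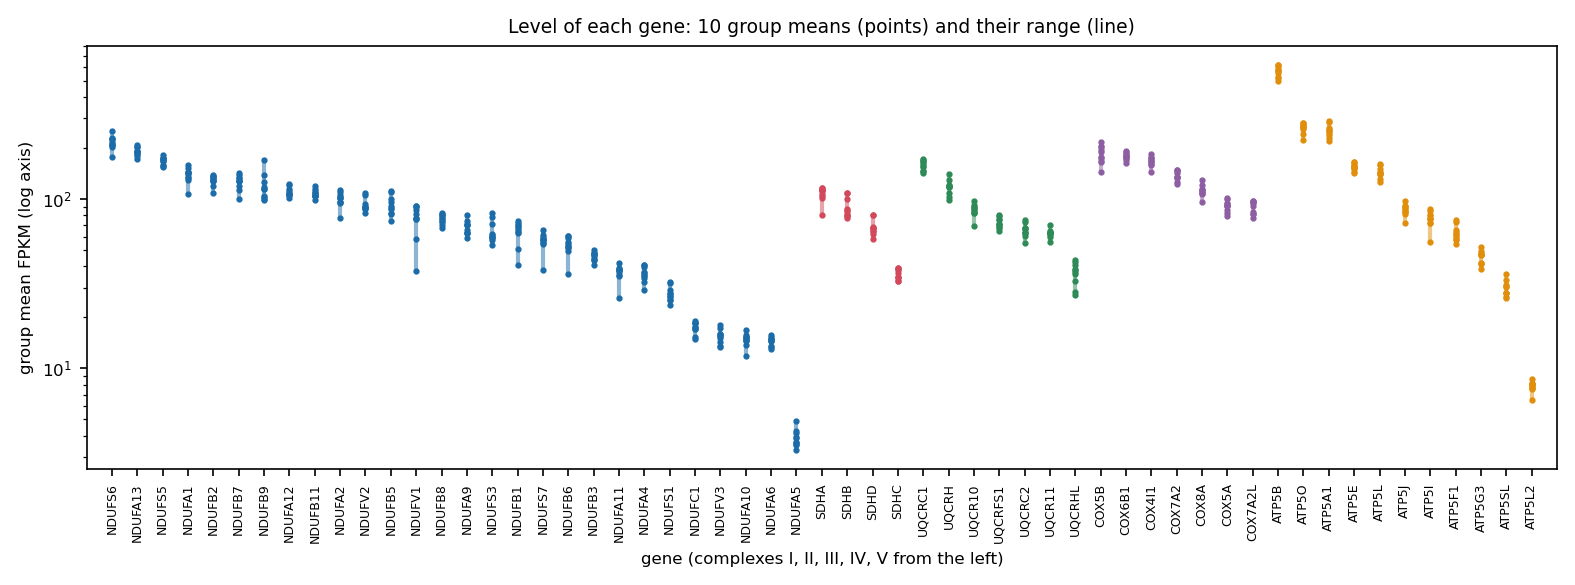
Level of 57 of the genes in FPKM on a log axis, 1 point for each of the 10 group means and a line for their range, with complexes I to V from the left. ATP5B lies highest and NDUFA5 lowest, and the group means of most genes lie close together, with NDUFV1 and NDUFB1 among the widest ranges.

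At 2 h, 18 of the 58 members rose and none fell with tobacco shisha on the electronic heater against control, where 9.27% of all genes tested rose and 24.8% fell (34% called in all). A gene was called, and is said to have risen or fallen, when its limma p-value adjusted by Benjamini-Hochberg over 8530 genes was below 0.05. The median log2 difference of the members was 0.14, against -0.04 for all genes. By complex, 8 of 29 genes rose in complex I, 1 of 4 in complex II, 2 of 7 in complex III, 4 of 7 in complex IV and 3 of 11 in complex V. COX8A, a small subunit of complex IV, had the largest rise among them, at 126.6, 123.1 and 139.5 FPKM with the electronic heater against 96.4, 113.2 and 112.8 FPKM in control (log2 difference 0.27 ± 0.06, SE; adjusted p = 0.000737). Its wells did not overlap between the groups. ATP5B reached 550.6, 569.0 and 626.3 FPKM with the electronic heater and 514.8, 533.8 and 517.7 FPKM in control (0.15 ± 0.04, adjusted p = 0.00137, and 0.0799 when only these groups were fitted). The third electronic heater well was the highest for both genes. Without that well the 18 calls fell to 5, as they did with only these groups fitted.

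With tobacco shisha on charcoal at 2 h, 9 members rose and 1 fell, where 8.5% of genes rose and 26.7% fell. Of the rises COX7A2L had the largest, at 95.7, 98.1 and 99.1 FPKM with tobacco on charcoal and 80.6, 82.1 and 81.1 FPKM in control (0.26 ± 0.04, adjusted p = 3.85e-05). NDUFV3, an accessory subunit of the matrix arm of complex I, fell by 0.15 (adjusted p = 0.0283). That call was lost without control well 2 (adjusted p = 0.114) or tobacco on charcoal well 3 (adjusted p = 0.142). The 10 calls in all fell to 6 without control well 1 and to 5 without control well 2.

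With herbal shisha on charcoal at 2 h, 11 members rose and 1 fell, where 10.6% of genes rose and 27.7% fell. Complex V held 5 of the rises (ATP5A1, ATP5B, ATP5E, ATP5L and ATP5O, with log2 differences of 0.12 to 0.18). The gene that fell was COX5B, a zinc-binding subunit of complex IV, at 145.7, 160.0 and 126.8 FPKM with herbal shisha against 190.3, 197.3 and 197.0 FPKM in control (-0.44 ± 0.12, adjusted p = 0.00426). All 3 herbal wells lay below all 3 control wells. The 12 calls fell to 7 without control well 1 or 3, to 5 without control well 2 or herbal well 1, and to 6 without herbal well 3. With only these groups fitted they were 20, with 18 rises and 2 falls, but the shares of all genes in that fit are not given here.

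Charcoal alone gave another picture at 2 h: no member rose and 7 fell, where 8.16% of genes rose and 16.2% fell. All 7 carry complex I names (NDUFV3, NDUFC1, NDUFS3, NDUFB5, NDUFA6, NDUFS1 and NDUFS5). NDUFS1, the large iron-sulfur subunit of the NADH-oxidising module, had 22.8, 24.4 and 23.9 FPKM with charcoal alone and 26.5, 26.6 and 26.3 FPKM in control (-0.15 ± 0.04, adjusted p = 0.00965). The members' median of -0.10 was close to that of all genes, -0.08. When libraries were rescaled by the median of ratios, 1 of the 7 calls remained (NDUFV3). The count also fell to 4 without control well 2 or charcoal well 2, to 2 without control well 3, and to 3 without charcoal well 1 or 3. With only these groups fitted it was 24, all lower, but the share of all genes that fell in that fit is not given here.

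That rescaling moved the 2 h counts for the other exposures upwards. It gave 36 rises and no fall with the electronic heater, 28 rises and no fall with tobacco on charcoal, and 28 rises and 1 fall with herbal shisha. Among all genes it gave 1434 rises and 1679 falls with the electronic heater, against 791 and 2112 on unscaled FPKM. For tobacco on charcoal it gave 1467 and 1508 (725 and 2276 unscaled), for herbal shisha 1627 and 1624 (901 and 2359), and for charcoal alone 956 and 688 (696 and 1385). Transcript length also moved with the 2 h results, though hardly with charcoal alone. The Spearman correlation of the electronic heater's log2 difference with GENCODE transcript length was -0.45 across 8132 genes and 0.02 across the 57 members with a length, as a description over genes of the same libraries. Across all these genes it was -0.245 with tobacco on charcoal, -0.226 with herbal shisha and -0.033 with charcoal alone. Genes of 1000 bases or less that were not members had a median of 0.09, against 0.13 for the 27 short members. Longer genes that were not members had a median of -0.06, against 0.14 for the 30 longer members. The part of length in the 2 h rises was not tested. The fibroblast marker sum at 2 h was 297.0 to 320.1 FPKM with the electronic heater, 282.9 to 299.4 with tobacco on charcoal, 285.6 to 300.5 with herbal shisha and 295.7 to 318.6 with charcoal alone, against 343.8 to 344.6 FPKM in control, and its part in the 2 h results was not tested.

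At 24 h the picture with the electronic heater was different: 28 of 58 members fell and 8 rose, where 29.5% of all genes fell and 34.3% rose. The median of the members was -0.12, against 0.03 for all genes. In complex I 16 of 29 genes fell and 4 rose. Complex II had 2 falls and 1 rise among 4 genes, complex III had 2 and 1 among 7, complex IV had 4 and 1 among 7, and complex V had 4 and 1 among 11. After rescaling, 31 fell and 7 rose, and these held all 28 falls, but the rescaled shares of all genes are not given here. BEAS-2B cells were measured in bulk, so fewer cells expressing a gene and less of its RNA per cell cannot be told apart. The summed level of the fibroblast markers moved with the group as well, at 138.2 to 158.4 FPKM with the electronic heater and 303.5 to 324.2 FPKM in control, and all 4 tested markers of that list fell. The epithelial marker sum was 784.0 to 844.7 FPKM with the electronic heater and 882.6 to 1043 FPKM in control. Their part in the result was not tested. The log2 difference with the electronic heater had a Spearman correlation with transcript length of 0.272 across the 57 members with a length and -0.06 across 8132 genes. The 27 members of 1000 bases or less had a median of -0.191 and the 30 longer members -0.046. Genes that were not members had medians of 0.021 and 0.04. The part of length in the 24 h falls was not tested.

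**Figure D2:**
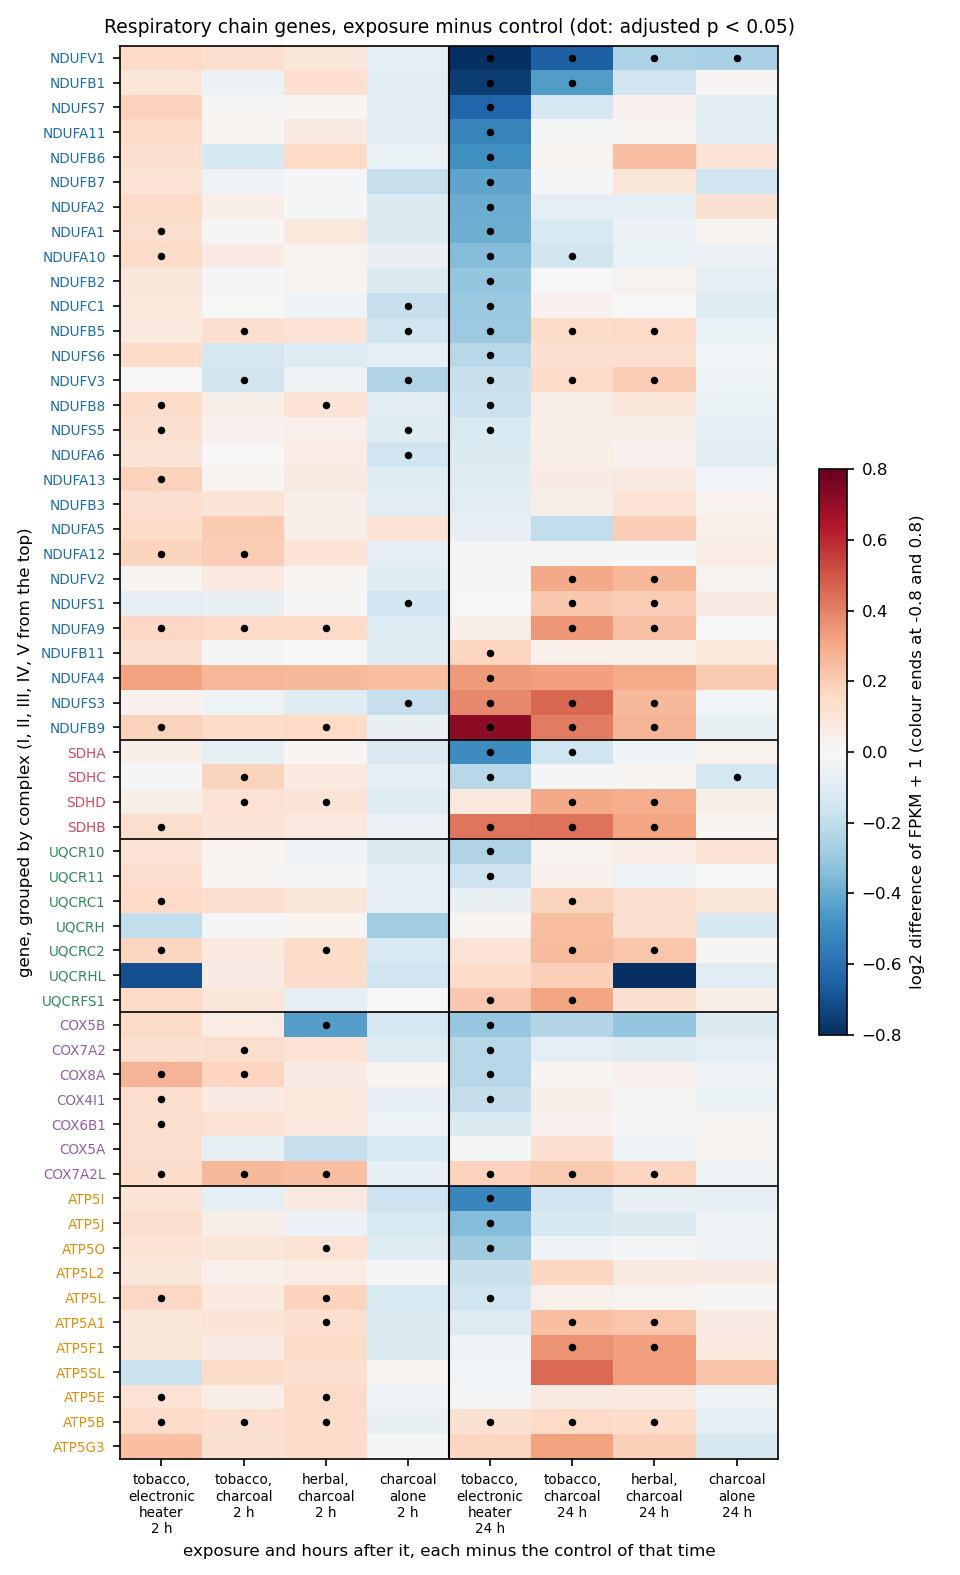
Log2 difference of FPKM + 1 from the control of the same time for 57 of the genes (rows, by complex) and 8 exposures (columns, 2 h left and 24 h right), with a dot where the adjusted p was below 0.05 and colours ending at -0.8 and 0.8. The electronic heater column at 24 h is mostly blue, with 28 falls and 8 rises, while its 2 h column has 18 rises and no fall.

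Within complex I, accessory subunits of the membrane arm carried most of the falls. Of these 15 genes, 11 fell and 2 rose with the electronic heater at 24 h (median -0.30). Of the 6 members that are core subunits of the matrix arm, which holds the flavin and iron-sulfur clusters, 2 fell and 1 rose. Of the 7 members that are its accessory subunits, 3 fell. The difference between the arms was not tested.

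NDUFV1, the core subunit that binds NADH and flavin where electrons enter the chain, fell furthest. It had 36.2, 40.9 and 35.1 FPKM with the electronic heater against 91.9, 92.5 and 89.1 FPKM in control (-1.27 ± 0.08, adjusted p = 2.23e-11). At 24 h it had 46.3, 63.4 and 65.1 FPKM with tobacco on charcoal, a fall of 0.65 (adjusted p = 1.67e-06). Herbal shisha gave 73.6, 80.8 and 74.4 FPKM (-0.26, adjusted p = 0.0254), and charcoal alone gave 76.1, 77.7 and 74.0 FPKM (-0.26, adjusted p = 0.0472). These comparisons share the control wells, and in each the exposed wells lay below all 3 of them. The call for charcoal alone was lost without any 1 of the 6 libraries (adjusted p = 0.0854 to 0.142). That for herbal shisha was lost without control well 1 or 2 or herbal well 1 or 3 (adjusted p = 0.0688 to 0.0857).

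NDUFV1 was also compared directly between exposures. It was lower with the electronic heater than with tobacco on charcoal (-0.61 ± 0.08, adjusted p = 3.58e-06) and lower with tobacco than with herbal shisha on charcoal (-0.40 ± 0.08, adjusted p = 0.0099). The second of these calls was lost without herbal well 2 (adjusted p = 0.0515) or tobacco well 1 (adjusted p = 0.066), and when only these groups were fitted (adjusted p = 0.391). At 2 h the gene was not called in any exposure, with 89.1, 87.2 and 96.7 FPKM for the electronic heater and 80.6, 84.7 and 78.6 FPKM in control.

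NDUFB1, an accessory subunit of the membrane arm, had 38.2, 44.2 and 39.8 FPKM with the electronic heater at 24 h against 69.8, 70.8 and 68.2 FPKM in control (-0.76 ± 0.06, adjusted p = 5.22e-10). With tobacco on charcoal its wells lay between, at 45.4, 57.1 and 50.4 FPKM (-0.45 ± 0.06, adjusted p = 5.27e-06). NDUFS7, the core subunit with the last iron-sulfur cluster before ubiquinone, had 35.5, 38.2 and 40.6 FPKM with the electronic heater and 61.4, 59.1 and 58.4 FPKM in control (-0.64 ± 0.09, adjusted p = 1.92e-06). Its tobacco on charcoal wells spread from 44.7 to 60.9 FPKM and the gene was not called there. NDUFA11, NDUFB6, NDUFB7, NDUFA2 and NDUFA1 also fell with the electronic heater, by 0.39 to 0.53.

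Against that trend NDUFB9, a membrane-arm accessory subunit of the LYR family, rose. Its electronic heater wells had 171.1, 170.8 and 169.9 FPKM at 24 h and the control wells 104.4, 98.1 and 108.8 FPKM (0.71 ± 0.06, adjusted p = 7.5e-10). It also rose with tobacco on charcoal (149.8, 136.4 and 130.7 FPKM; 0.42 ± 0.06, adjusted p = 7.76e-06) and with herbal shisha (117.6, 124.3 and 135.4 FPKM; 0.27 ± 0.06, adjusted p = 0.00178). Charcoal alone left it at 96.7, 102.1 and 99.8 FPKM, within the control range or just below it, and it was not called. NDUFS3, a core subunit of the matrix arm, had 78.3, 79.7 and 76.7 FPKM with the electronic heater against 58.9, 57.8 and 62.3 FPKM in control (0.39 ± 0.06, adjusted p = 2.54e-06). The other rises were NDUFB11 (0.17) and NDUFA4 (0.34, adjusted p = 0.0489). NDUFA4 was lost without control well 2 or 3 or any 1 electronic heater well (adjusted p = 0.0722 to 0.209), after rescaling (0.0791) and with a replicate block (0.0586).

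**Figure D3:**
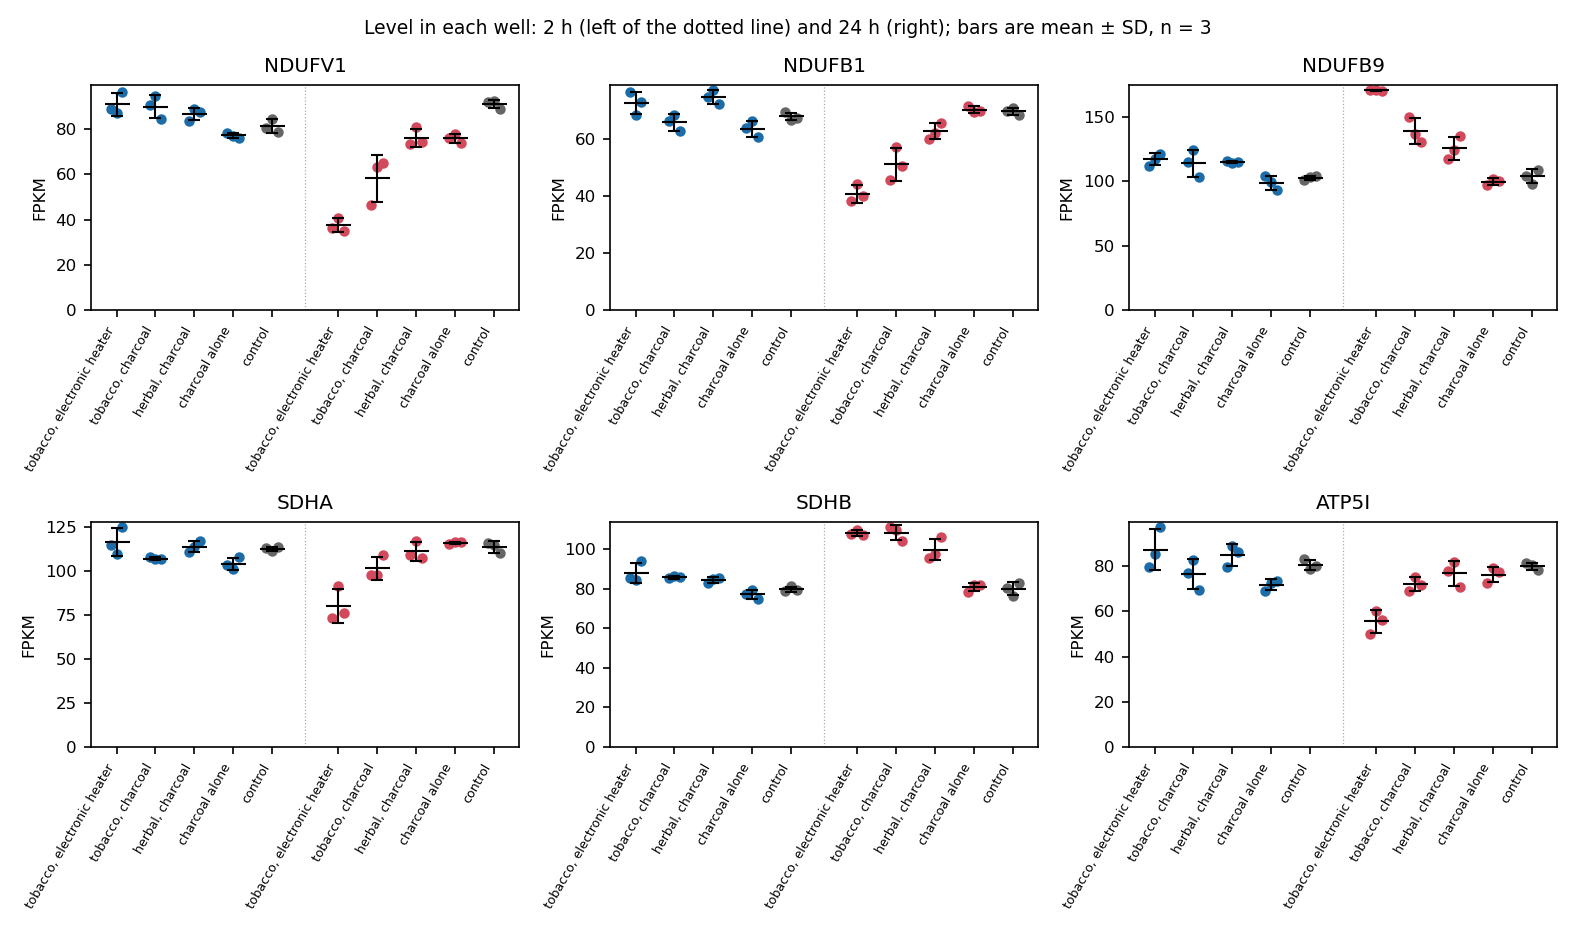
FPKM of 6 genes in every well, with mean ± SD of 3 wells; 2 h groups lie left of the dotted line and 24 h groups right, each in the order tobacco on the electronic heater, tobacco on charcoal, herbal shisha, charcoal alone and control. At 24 h NDUFV1, NDUFB1, SDHA and ATP5I are lowest with the electronic heater, NDUFB9 is highest there, and SDHB is high with tobacco on either heat source.

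In complex II, the catalytic pair split. SDHA, the flavoprotein that oxidises succinate, had 73.3, 91.2 and 76.1 FPKM with the electronic heater at 24 h and 116.0, 114.7 and 110.1 FPKM in control (-0.50 ± 0.06, adjusted p = 1.5e-07). SDHB, the iron-sulfur subunit that takes its electrons, had 107.4, 109.7 and 106.8 FPKM with the electronic heater and 80.5, 76.4 and 82.9 FPKM in control (0.43 ± 0.04, adjusted p = 5.62e-09). In each case the wells did not overlap. SDHB was as high with tobacco on charcoal, at 111.0, 109.7 and 104.1 FPKM (0.43 ± 0.04, adjusted p = 4.98e-08), and rose with herbal shisha (0.31 ± 0.04, adjusted p = 1.6e-05). SDHA fell less with tobacco on charcoal (-0.16 ± 0.06, adjusted p = 0.0316) than with the electronic heater, and the direct difference was -0.34 ± 0.06 (adjusted p = 7.77e-05). Its call against control was lost without control well 1 or 2 or tobacco on charcoal well 1 or 2 (adjusted p = 0.0814 to 0.12). Of the membrane anchors, SDHC fell with the electronic heater (-0.22) and SDHD rose with tobacco on charcoal (0.30) and herbal shisha (0.29).

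Promoters are shown for the pair that split and for the core genes that moved furthest in complexes I and III, as the 150 bases before the annotated start on the gene's own strand (RefSeq, GRCh38.p14). They lie at chr11:67606786-67606935 on the plus strand for NDUFV1, chr5:218170-218319 on the plus strand for SDHA, chr1:17054033-17054182 on the minus strand for SDHB and chr19:29213152-29213301 on the minus strand for UQCRFS1. Capitals mark matches, on either strand, to the motif of NRF1 (nuclear respiratory factor 1, a known regulator of respiratory chain genes).
NDUFV1: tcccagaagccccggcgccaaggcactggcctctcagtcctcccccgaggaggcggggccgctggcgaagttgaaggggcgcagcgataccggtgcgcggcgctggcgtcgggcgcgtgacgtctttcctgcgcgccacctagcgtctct
SDHA: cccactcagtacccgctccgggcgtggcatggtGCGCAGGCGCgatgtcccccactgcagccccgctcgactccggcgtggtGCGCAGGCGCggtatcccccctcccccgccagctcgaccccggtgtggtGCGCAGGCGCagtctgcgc
SDHB: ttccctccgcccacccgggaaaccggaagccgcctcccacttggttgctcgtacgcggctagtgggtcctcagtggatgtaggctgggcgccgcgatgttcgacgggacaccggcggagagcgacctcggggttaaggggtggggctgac
UQCRFS1: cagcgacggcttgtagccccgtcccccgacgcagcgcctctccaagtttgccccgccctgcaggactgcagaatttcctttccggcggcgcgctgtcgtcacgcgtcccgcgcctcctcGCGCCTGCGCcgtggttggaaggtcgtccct
SDHA, which fell, held 3 matches in this window, UQCRFS1, which rose, held 1, and NDUFV1 and SDHB held none.

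Promoters of 49 of the 58 members were in the RefSeq table, covering 250 bases before the start to 50 after it. The NRF1 letters were present in 11 of the 49 (22.45%), against 6.28% of all 27305 promoters of that length. The ETS letters CCGGAAGT were in 7 (14.29%, against 4.44% of all), and the YY1 motif in 6 (12.24%, against 1.28%), each on either strand. Among the 11 members with NRF1 letters, 6 fell and 1 rose with the electronic heater at 24 h. Among the 29 with none of these letters, 15 fell and 4 rose. The 27305 promoters were not limited to the 8530 genes tested, so the shares are not set against genes of like level. These counts are descriptions, and a match is not a shown binding site.

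In complex III, 2 of 7 members fell with the electronic heater at 24 h and 1 rose, where 29.5% of all genes fell and 34.3% rose. The falls were thus a share near that of all genes. The gene that rose was the Rieske protein, and those that fell were 2 of the 3 small supernumerary subunits among the members. The other small subunit, UQCRH, was not called, with 94.2, 135.7 and 134.5 FPKM against 113.1, 120.95 and 121.2 FPKM in control. UQCR10 had 66.5, 73.3 and 68.2 FPKM with the electronic heater and 81.0, 82.4 and 83.2 FPKM in control (-0.24 ± 0.05, adjusted p = 6.89e-05), and UQCR11 fell by 0.17. UQCRFS1, the Rieske iron-sulfur protein that accepts electrons from ubiquinol, had 78.5, 79.4 and 68.2 FPKM with the electronic heater and 66.3, 63.6 and 63.8 FPKM in control (0.22 ± 0.07, adjusted p = 0.0122). That call was lost without electronic heater well 1 (adjusted p = 0.0556) or well 2 (adjusted p = 0.0597). With tobacco on charcoal UQCRFS1 rose (0.31 ± 0.07, adjusted p = 0.0013), as did the core proteins UQCRC1 (0.18) and UQCRC2 (0.26). The UQCRC1 call was lost without tobacco on charcoal well 2 (adjusted p = 0.061). UQCRHL was low in single wells, at 6.95 FPKM beside 38.1 and 39.2 FPKM with the electronic heater at 2 h and at 4.39 FPKM beside 39.2 and 37.6 FPKM with herbal shisha at 24 h, and was called in neither comparison.

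In complex IV, COX5B, COX7A2, COX8A and COX4I1 fell with the electronic heater at 24 h, by 0.19 to 0.30. COX4I1, a subunit at which ATP is known to slow the enzyme, had 140.2, 150.1 and 145.5 FPKM with the electronic heater and 168.7, 167.7 and 161.4 FPKM in control (-0.19 ± 0.04, adjusted p = 0.000656). COX5B had 163.3, 176.8 and 156.6 FPKM with the electronic heater and 215.1, 210.5 and 188.9 FPKM in control (-0.30 ± 0.12, adjusted p = 0.0249). Its call was lost without control well 1 or 2 or electronic heater well 1 or 3 (adjusted p = 0.0594 to 0.0859). COX7A2L rose instead, at 96.3, 101.1 and 90.3 FPKM with the electronic heater and 86.2, 83.8 and 82.6 FPKM in control (0.18 ± 0.04, adjusted p = 0.000605). It also rose with tobacco on charcoal (0.21) and herbal shisha (0.17), so the supercomplex factor and the subunit COX7A2, to which it is related in sequence, differed in direction with the electronic heater.

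In complex V by name, 4 of 11 members fell with the electronic heater at 24 h and 1 rose, where 29.5% of all genes fell and 34.3% rose. The falls were thus a share near that of all genes. They were the 2 small membrane subunits and 2 of the 3 peripheral stalk subunits among the members. None of ATP5A1, ATP5B and ATP5E fell. These sets hold few genes, do not cover every subunit, and were not compared by a test. The rotor subunit ATP5G3 in the membrane (0.17) and the stalk subunit ATP5F1 were not called. ATP5I, subunit e at the interface between ATP synthase dimers, had 50.2, 60.2 and 56.4 FPKM with the electronic heater at 24 h and 81.3, 80.5 and 78.2 FPKM in control (-0.52 ± 0.07, adjusted p = 1.49e-06). ATP5L, its partner subunit g, fell by 0.16. Of the peripheral stalk, which holds the head still, ATP5J fell by 0.35 and ATP5O by 0.29. ATP5B rose to 605.4, 616.0 and 597.3 FPKM with the electronic heater, against 548.6, 547.9 and 575.0 FPKM in control (0.12 ± 0.04, adjusted p = 0.00413). ATP5A1, the other large subunit of the head, was not called, with 221.3, 251.9 and 212.2 FPKM with the electronic heater and 242.5, 236.7 and 256.3 FPKM in control. With tobacco on charcoal ATP5A1 rose instead (281.9, 302.8 and 283.5 FPKM; 0.24 ± 0.05, adjusted p = 0.001), as did the stalk subunit ATP5F1 (0.36 ± 0.07, adjusted p = 0.000175). ATP5SL, which is no ATP synthase subunit, had 14.0 FPKM in electronic heater well 1 beside 36.45 and 33.6 FPKM in the other 2, and was not called.

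The charcoal exposures with shisha moved more members up than down at 24 h. With tobacco on charcoal 17 rose and 4 fell, where 25.9% of genes rose and 18.6% fell (44.5% called in all), and the 4 were NDUFV1, NDUFB1, NDUFA10 and SDHA. With herbal shisha 15 rose and 1 fell, where 16.5% of genes rose and 10.4% fell. Core subunits of the matrix arm of complex I had 4 rises among 6 genes in each case, including NDUFS1. NDUFS1 had 32.4, 32.0 and 32.1 FPKM with tobacco on charcoal and 27.97, 26.1 and 28.8 FPKM in control (0.22 ± 0.04, adjusted p = 0.000241), with no overlap between the wells. The members' medians, 0.05 with tobacco and 0.07 with herbal shisha, were near those of all genes, 0.04 and 0.03. The fibroblast marker sum was 193.6 to 267.3 FPKM with tobacco on charcoal and 257.3 to 288.0 FPKM with herbal shisha, below the 303.5 to 324.2 FPKM of control. The epithelial marker sum was 787.1 to 898.6 FPKM with tobacco on charcoal and 753.2 to 827.8 FPKM with herbal shisha, against 882.6 to 1043 FPKM in control, and 1 and 2 of its 4 tested markers fell. The part of these markers in the results was not tested. Across the 57 members with a length, the Spearman correlation of the log2 difference with transcript length was 0.298 with tobacco on charcoal and 0.287 with herbal shisha. Across 8132 genes it was -0.162 and -0.143, and the part of length was not tested. After rescaling the split was 15 rises and 7 falls with tobacco, and 14 and 4 with herbal shisha. The rescaled split of all genes is not given here for tobacco. For herbal shisha rescaling gave 1002 rises and 1087 falls among all genes, against 1406 and 883 unscaled.

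Charcoal alone at 24 h had no rise and 2 falls, NDUFV1 and SDHC, where 6.05% of genes rose and 3.82% fell (9.87% called in all). SDHC had 34.8, 35.2 and 34.5 FPKM with charcoal alone and 38.4, 39.4 and 37.9 FPKM in control (-0.14 ± 0.04, adjusted p = 0.0417). Neither call held without any 1 of the 6 libraries. Between the times, control wells differed in few members: 3 rose and none fell at 24 h against 2 h, where 7.44% of genes rose and 9.44% fell. NDUFB5 had the largest of these changes (0.27 ± 0.05, adjusted p = 0.000872), and SDHC and ATP5E were the others. The count fell to 1 without control well 3 of 2 h or control well 1 of 24 h.

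The heat source was compared directly with the same tobacco shisha. Doses were matched by toxicity and not by smoke mass, so heat source and dose cannot be told apart. At 24 h, 41 of 58 members were lower with the electronic heater than with charcoal and 2 were higher, where 24.9% of genes were lower and 22.9% higher (47.8% called in all). The median was -0.22 for the members and -0.0046 for all genes, and rescaling called the same 41 and 2 members. All 4 tested fibroblast markers were also lower in this comparison (median -0.83), with sums of 138.2 to 158.4 FPKM for the electronic heater and 193.6 to 267.3 FPKM for tobacco on charcoal, and their part in the result was not tested. The lower members were 22 of 29 in complex I, 3 of 4 in complex II, 4 of 7 in complex III, 4 of 7 in complex IV and 8 of 11 in complex V. NDUFB9 (0.30) and NDUFB11 (0.13) were the higher members. ATP5A1 differed by -0.34 ± 0.05 (adjusted p = 2.03e-05) and COX4I1 by -0.25 ± 0.04 (adjusted p = 9.78e-05), with electronic heater wells below all tobacco on charcoal wells. At 2 h only 3 members were higher and 1 lower with the electronic heater, where 12.7% of genes were higher and 10.6% lower (23.3% called in all). After rescaling none was higher and 2 were lower, and with only these groups fitted none was called by limma (3 at an unadjusted p below 0.05). That count became 9 without tobacco on charcoal well 2, 1 without its well 3, and 2 without electronic heater well 3.

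**Figure D4:**
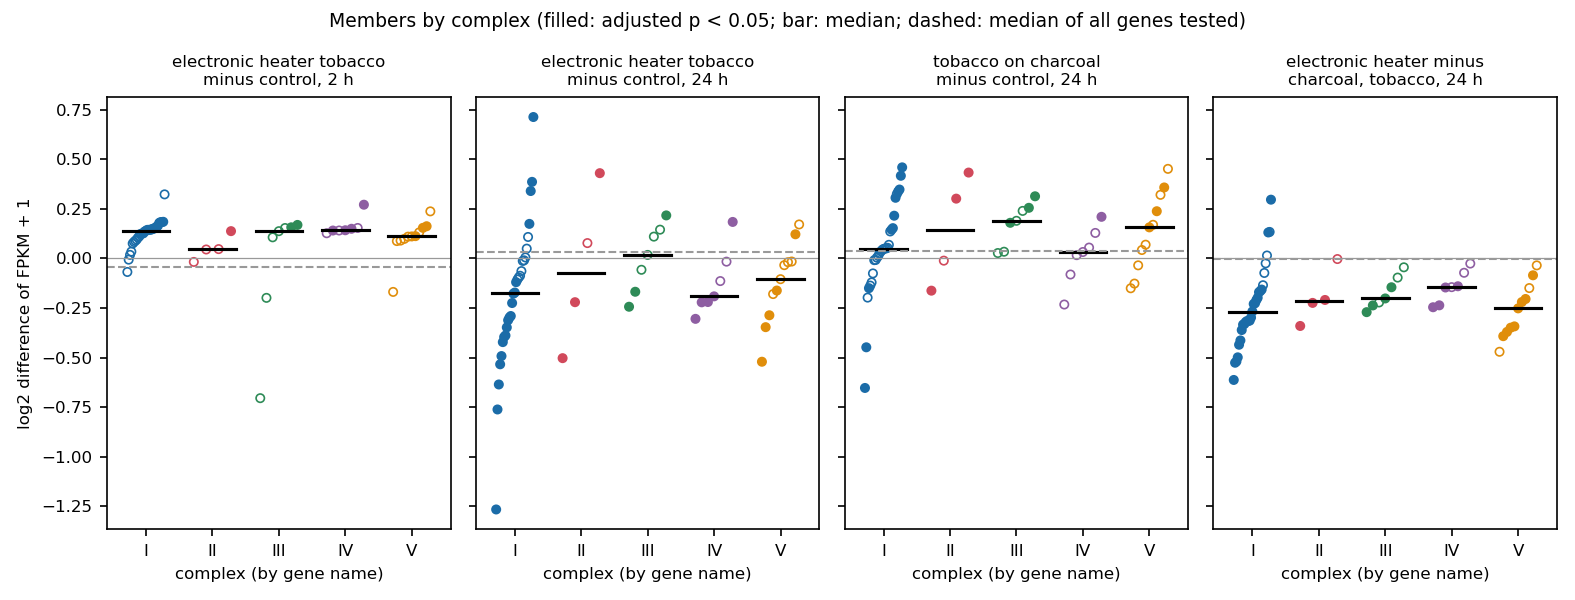
Log2 difference of FPKM + 1 for each gene by complex in 4 comparisons, filled where the adjusted p was below 0.05, with a bar at the median of the complex and a dashed line at the median of all genes tested. Against tobacco on charcoal, the electronic heater at 24 h had 41 genes lower, spread over all 5 complexes, and 2 called genes of complex I higher.

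Shisha type and its presence were compared in the same way. Herbal shisha against charcoal alone gave 27 higher members and none lower at 2 h (10.1% of genes higher, 14.3% lower) and 20 higher and 2 lower at 24 h (16.2% and 15.3%). At 24 h all 4 tested fibroblast markers were lower as well (sums of 257.3 to 288.0 FPKM with herbal shisha and 358.3 to 367.1 FPKM with charcoal alone). The epithelial marker sums were 753.2 to 827.8 FPKM with herbal shisha and 1142 to 1219 FPKM with charcoal alone. The part of these markers in the members' result was not tested. SDHB at 24 h was the clearest by p, with 95.6, 97.6 and 105.9 FPKM for herbal shisha and 78.2, 82.0 and 81.7 FPKM for charcoal alone (0.30 ± 0.04, adjusted p = 1.08e-05). Tobacco against herbal shisha, both on charcoal, differed in 1 member at 2 h (COX5B, higher with tobacco by 0.50 ± 0.12, adjusted p = 0.0413), where 0.305% of genes were higher and 0.305% lower. It differed in 3 at 24 h (NDUFV1 and NDUFB1 lower, NDUFS3 higher), where 2.42% were higher and 2.71% lower (5.12% called in all). The COX5B call was lost without herbal well 1 or 3 or any 1 tobacco well (adjusted p = 0.0777 to 0.301). The count of 3 became 1 without herbal well 2, 5 without herbal well 3 or tobacco well 3, and 0 without tobacco well 1.

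Whether an exposure's effect differed between the times was tested as an interaction. With the electronic heater, 36 members had a lower effect at 24 h than at 2 h and 3 had a higher one, where 22.8% of genes were lower and 34.8% higher. The median was -0.23 for the members and 0.09 for all genes. ATP5L, COX4I1, COX8A, NDUFA1, NDUFA10, NDUFB8 and NDUFS5 rose at 2 h and fell at 24 h, while ATP5B, COX7A2L, NDUFB9 and SDHB rose at both times. The 2 h side of these lists rests on the 18 calls at 2 h. Those fell to 5 without electronic heater well 3 of 2 h, and to 5 with only the compared groups fitted. COX4I1 had an interaction of -0.33 ± 0.06 (adjusted p = 9.77e-05) and SDHB one of 0.29 ± 0.06 (adjusted p = 0.00019). With tobacco on charcoal, 9 members were higher and 5 lower (30.2% of genes higher, 10.8% lower), with herbal shisha 6 and 3 (24% and 8.3%), and with charcoal alone 3 and 0 (16.2% and 7%). Rescaling moved the median of all genes in these interactions, to 0.01 with tobacco on charcoal (0.13 unscaled) and herbal shisha (0.12 unscaled), and turned the splits to 2 higher and 19 lower, 1 and 14, and 0 and 1. The shares of all genes called after rescaling are not given for these interactions, so the rescaled splits are not set against them.

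Genes outside the name rule were counted from lists for the same organelle. With the electronic heater at 24 h, where 34.3% of all genes rose and 29.5% fell, 3 of 9 complex I assembly factors rose and 3 fell (median 0.11), shares close to those of all genes. NDUFAF4 rose by 0.81 ± 0.09 (adjusted p = 6.03e-08) and NDUFAF3 fell by 0.82 (adjusted p = 2.18e-09). Of 16 complex IV assembly factors, 5 rose and 3 fell, among them COX19 (0.88) and the copper chaperone SCO1 (0.64). Of 14 citric acid cycle genes 6 rose and 6 fell with the electronic heater, and 8 rose and none fell with tobacco on charcoal (25.9% and 18.6% of all genes). IDH3A, the catalytic subunit of NAD-dependent isocitrate dehydrogenase, rose by 0.68 with the electronic heater. Of 11 genes for mitochondrial transcription and biogenesis 8 rose with the electronic heater and none fell, including TFB2M (0.68), POLRMT (0.61) and ESRRA (0.63). The transcript of NRF1 itself was not called (0.08, adjusted p = 0.385).

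Hypoxia-responsive genes of mitochondria and glycolysis fell at 24 h in 12 of 14 cases with the electronic heater, 13 with tobacco on charcoal, 12 with herbal shisha and 6 with charcoal alone, against shared control wells. Of all genes 29.5%, 18.6%, 10.4% and 3.82% fell in these comparisons, in the same order. Medians of the list were -0.84, -0.85, -0.62 and -0.21. The control wells moved in this list themselves: 11 of the 14 genes rose and none fell in control at 24 h against control at 2 h (median 0.62, with 7.44% of all genes rising). BNIP3, a mitophagy receptor, rose by 2.20 there, PDK1 by 1.25 and LDHA by 1.12. The falls at 24 h are thus set against control wells in which the list was higher than at 2 h, and no comparison of exposed wells at 24 h with control at 2 h was made. PDK1, which holds pyruvate back from the citric acid cycle, fell by 1.40 with the electronic heater (adjusted p = 2e-11) and by 1.38 with tobacco on charcoal (adjusted p = 2.25e-10). LDHA, which makes lactate, fell by 1.70 and by 0.98. Of 9 electron carriers and chain proteins outside the name rule, 4 rose and 3 fell with the electronic heater. NDUFAB1, the acyl carrier subunit of complex I, rose by 0.54, CYC1, the cytochrome c1 of complex III, by 0.19, and CYCS, cytochrome c, by 0.27, while ETFB, which feeds electrons from fatty acid oxidation, fell by 0.68. For NDUFAB1 and CYC1 tobacco on charcoal gave 0.43 and 0.32.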

How the data were processed

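RNA from 30 wells of BEAS-2B cells in 10 groups was sequenced. Reads were processed with HISAT2 2.1.0, StringTie 1.3.4d and the build hg38, per the submitters' processing notes. The deposited values are FPKM per transcript row, 1 file for each sample. No source used here names the annotation release.

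The row with the highest mean was kept for each name, and genes with at least 1 FPKM in at least 3 libraries were tested (8530). limma 3.58.1 in R 4.3.3, with a mean trend in its prior, was fitted on log2(FPKM + 1) over all 30 libraries with group as the only term. P-values were adjusted by Benjamini-Hochberg over all genes, and differences are on that log2 scale with SE, which understates changes of low genes. Python 3.11.15 did the counting, and the fit was tested on simulated data. Among low genes, the most common rounded ratio between control wells 1 and 2 covered 3.6% of genes at 2 h and 5.6% at 24 h. This cannot settle whether low FPKM were whole multiples of a step. Reads were not recovered and no count test was run.

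Alternatives were rescaling by the median of ratios, a pseudocount of 0.1, no level filter, a replicate block, only the compared groups, the sum of rows per name, and leaving out each library. Named genes were the called member of each complex with the largest rise and fall in each comparison with control and between control times, the 3 largest called changes between exposures and in each interaction, a fixed list of core subunits and paralogs, and other called members where a complex is described. Members, lists and this rule were chosen with earlier results of these data known. Same-numbered wells deviated together with correlations of -0.107 to 0.177 at 2 h and -0.085 to 0.231 at 24 h, so the numbers were not treated as pairs. No source used here says what the control wells received or whether wells were separate cultures. Some results are not reported here, and 1 gene is not drawn in the plots that label every gene.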

Additional observations from a re-analysis of the deposited data

Results flagged for a closer look

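The 24 h effect differed from the 2 h effect in 39 members with the electronic heater, 14 with tobacco on charcoal, 9 with herbal shisha and 3 with charcoal alone, by the interaction test in limma over all genes, adjusted by Benjamini-Hochberg. The 3 largest of each exposure are given here. With tobacco on the electronic heater the 24 h effect minus the 2 h effect was -1.43 ± 0.12 for NDUFV1 (adjusted p = 2.75e-09), -0.86 ± 0.09 for NDUFB1 (adjusted p = 4.99e-08) and -0.82 ± 0.13 for NDUFS7 (adjusted p = 1.12e-05). With tobacco on charcoal it was -0.80 ± 0.12 for NDUFV1 (adjusted p = 1.63e-05), -0.40 ± 0.09 for NDUFB1 (adjusted p = 0.000993) and 0.50 ± 0.08 for NDUFS3 (adjusted p = 4e-05). With herbal shisha it was -0.34 ± 0.12 for NDUFV1 (adjusted p = 0.0276), -0.29 ± 0.09 for NDUFB1 (adjusted p = 0.0156) and 0.35 ± 0.08 for NDUFS3 (adjusted p = 0.0018). The herbal NDUFV1 call was lost in 8 of the fits without 1 library (adjusted p = 0.0507 to 0.0625). With charcoal alone it was 0.23 ± 0.06 for UQCR10 (adjusted p = 0.0114), 0.22 ± 0.06 for NDUFS1 (adjusted p = 0.00911) and 0.20 ± 0.07 for NDUFV3 (adjusted p = 0.046). Those 3 calls were lost after rescaling, and NDUFV3 was lost in 10 fits without 1 library (adjusted p = 0.0556 to 0.133). The exposures of one time share control wells.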

How the results depend on the processing

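Among the 250 results for named genes (a gene in 1 comparison each), no direction of a called value reversed under any alternative run. Members outside the naming rule were not part of that check. Rescaling by the median of ratios gave 36 called members for the electronic heater at 2 h (18 unscaled), 28 for tobacco on charcoal at 2 h (10), 29 for herbal shisha at 2 h (12), 1 for charcoal alone at 2 h (7), 2, both lower, for electronic heater against charcoal tobacco at 2 h (4, of which 3 higher), and 15 and 1 for the herbal and charcoal interactions (9 and 3). A pseudocount of 0.1 gave 1 for charcoal alone at 24 h (2). No level filter gave 1 there, 0 for tobacco against herbal shisha at 2 h (1) and 1 for electronic heater against charcoal tobacco at 2 h. With only the compared groups the counts were 5 for the electronic heater, 20 for herbal shisha and 24 for charcoal alone at 2 h, 0 for tobacco against herbal shisha at 2 h and at 24 h, 0 for electronic heater against charcoal tobacco at 2 h, 7 for control by time and 12 for the charcoal interaction. Leaving out 1 library gave 5 to 23 called members for the electronic heater at 2 h, 5 to 9 for tobacco on charcoal, 5 to 10 for herbal shisha and 2 to 5 for charcoal alone. At 24 h the ranges were 33 to 36, 18 to 21, 13 to 17, and 0 to 0. Between exposures they were 20 to 24 for herbal shisha against charcoal alone at 2 h and 16 to 20 at 24 h, 0 to 1 for tobacco against herbal shisha at 2 h and 0 to 5 at 24 h, and 1 to 9 for electronic heater against charcoal tobacco at 2 h and 36 to 43 at 24 h. Control by time gave 1 to 3, and the interactions 32 to 41, 11 to 17, 6 to 9 and 2 to 3 in the same order of exposures. The cause was not tested. These alternative counts of members are not set against shares of all genes in the same fits, except where such values are printed above. With the replicate block, 36 members were called for the electronic heater at 24 h and 19 at 2 h. It lost the calls of NDUFB9 (adjusted p = 0.05) and ATP5A1 (adjusted p = 0.0548) for herbal shisha at 2 h, of NDUFA4 for the electronic heater at 24 h and of NDUFV3 for the charcoal interaction (adjusted p = 0.0539). Summing rows per name changed no call among the 250 results recomputed. Only 1 member, NDUFA6 (4 rows), had more than 1 row, and it is not among them. The levels behind those results could thus not change, and this run does not test them. Unknown depth limits what can be said of counting error.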
